A study of Mus musculus with 8 samples.

Results

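Glycolysis and the hypoxia response were followed through 38 genes in MC3T3, an immortal line of mouse pre-osteoblasts able to mineralize their matrix in culture. They were taken by gene symbol, and all 38 were found among the 43346 genes of the count table. By role they comprised 4 glucose transporter genes, 19 genes of the glycolytic steps and their regulators, 4 genes of lactate production and export, 6 regulators of the hypoxia-inducible factors (Hif) and 5 Hif targets outside glycolysis. For all 8 RNA-seq libraries the cells spent 7 days under mineralizing conditions, given by beta-glycerophosphate at 10 mM and ascorbic acid at 100 micrograms per mL. For the 4 LLC-CM libraries, 25% of the medium had been conditioned without serum by LLC1, the Lewis lung carcinoma line of the mouse. NCM, the name of the other 4, is not spelled out in the labels and is taken as vehicle by elimination, with its composition not stated there. The question was which RNAs of mineralizing cells differ between LLC-CM and NCM. Factors shed by the carcinoma cells and any other difference between the media cannot be told apart in this design.

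Glycolysis splits glucose into pyruvate, and lactate dehydrogenase turns pyruvate into lactate, which leaves the cell through monocarboxylate transporters. Osteoblasts are known for taking up much glucose and releasing much of its carbon as lactate even when oxygen is present. Hif factors pair an oxygen-labile alpha subunit, Hif1a or Epas1, with the stable subunit Arnt. With oxygen, prolyl hydroxylases of the Egln family mark the alpha subunit for destruction by Vhl, so Hif activity is set largely at the protein level, which RNA counts do not measure.

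Libraries held 27264212 to 35573953 assigned reads, and the first principal component of log2 CPM (the read count as a rate of the library total, scaled by TMM factors) carried 76.4% of the variance and separated LLC-CM from NCM. The osteoblast markers Runx2, Sp7, Alpl, Bglap, Ibsp, Col1a1 and Col1a2 were all present, at a summed 45326 to 55908 CPM in LLC-CM and 65393 to 87064 CPM in NCM. Collagen genes and Ibsp carried that sum, and the others were further apart: Bglap averaged 1.55 CPM in LLC-CM and 128 CPM in NCM, Alpl 13.7 and 62.6 CPM, Sp7 230.3 and 529 CPM, and Runx2 237 and 470.1 CPM. Of 6 epithelial markers Epcam, Krt8, Krt18 and Sftpc had 0 counts in every library, and the sum, mostly Muc1, ranged from 1.11 to 2.24 CPM in LLC-CM and from 0.32 to 0.71 CPM in NCM. The summed macrophage markers (6 of 7 in the table, with a count for all 6 and for Ptprc 4 counts in all) ranged from 23.0 to 36.5 CPM in LLC-CM and from 15.1 to 20.2 CPM in NCM. The summed adipocyte markers (4 of 4 with a count) ranged from 17.3 to 24.5 CPM and from 7.98 to 10.00 CPM, with Plin1 at 1 count in all. Their part in the results below was not tested. Nothing in the labels ties the 4 libraries of a group to separate cultures, and every p-value reflects the spread among these samples, possibly a technical one.

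In LLC-CM Pfkfb4, Pfkfb3 and Ankrd37 were lowered the most, Car9, Ldhb, Eno2 and Hif1a were raised the most, and most of the abundant glycolytic enzymes were not past the threshold. A filter on low counts was passed by 33 of the 38 genes. Of these 33, 15 (45.5%) passed an adjusted p of 0.05, 6 higher and 9 lower in LLC-CM, by the quasi-likelihood test of edgeR. Over the 14991 genes tested in all, 36.9% passed, 18.8% higher and 18.1% lower, so the share among the 33 was near that of genes at large. Without NCM replicate 4, a library that stood apart (below), 12 of the 33 passed, 5 higher and 7 lower. At least 2-fold changes were found for 4 of the 33, against 8.61% of all genes, and the ranges of LLC-CM and NCM were separate for 10 of the 33, against 36.3% of all genes. The median log2 fold change was 0.06 over the 33 and 0.01 over all genes tested, and the median absolute value was 0.22 and 0.21. In bulk RNA fewer cells of a type and less RNA per cell cannot be told apart.

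**Figure D1:**
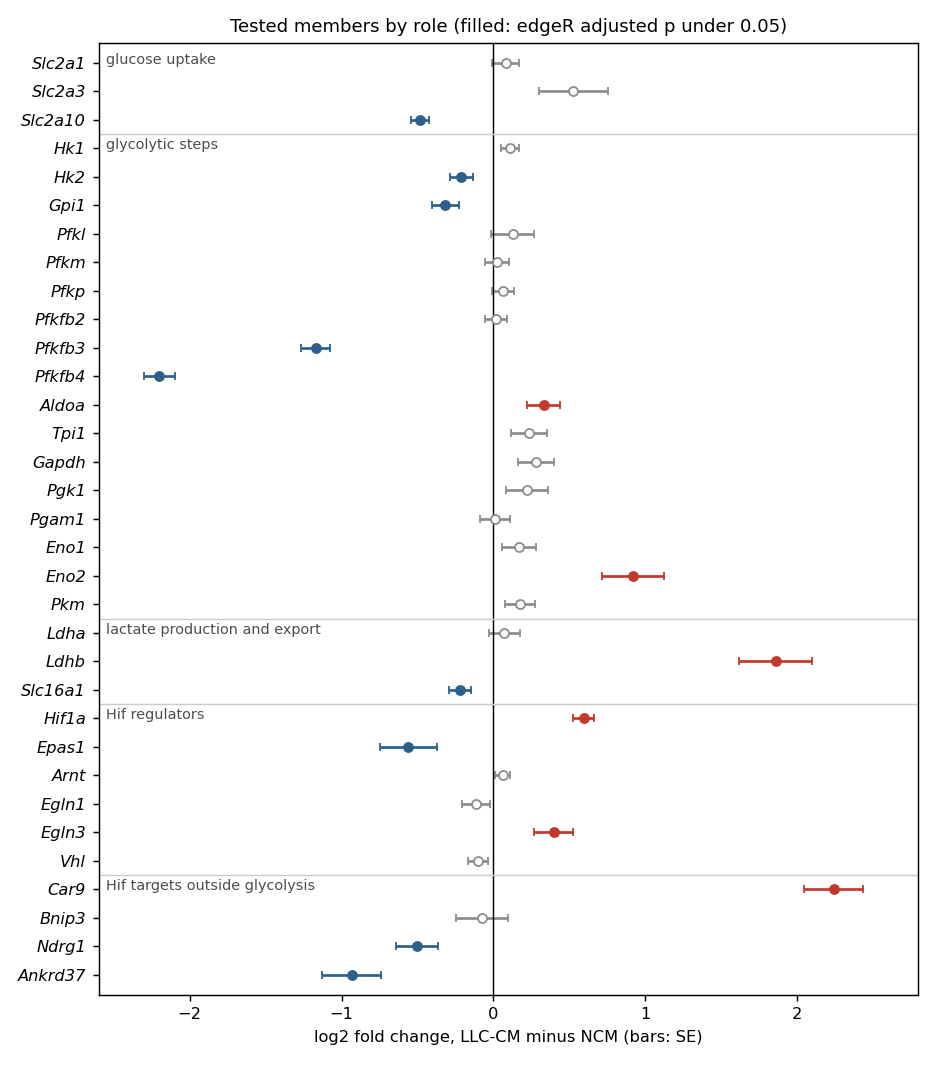
Log2 fold change of LLC-CM over NCM (horizontal axis, with SE from edgeR) for the 33 tested genes, in blocks by role. Filled points had an adjusted p under 0.05, red for 6 higher and blue for 9 lower genes; Pfkfb4 at -2.20 and Car9 at 2.24 mark the ends of the range.

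Glucose transporters showed 1 change. Slc2a10, a facilitative hexose transporter (chromosome 2, 165503787 to 165519917 in mm10), stood at 45.7, 45.5, 49.2 and 49.5 CPM in LLC-CM replicates 1 to 4 and at 65.0, 63.8, 71.3 and 65.5 CPM in NCM. Every LLC-CM library was below every NCM library, and Slc2a10 fell by 0.48 ± 0.06 on the log2 scale (SE, adjusted p = 1.47e-05). Slc2a1, the widely expressed basal glucose transporter (chromosome 4, 119108711 to 119137330), stood at 40.1, 38.4, 38.4 and 35.3 CPM in LLC-CM and at 36.3, 40.0, 38.6 and 29.1 CPM in NCM. Its groups overlapped, with NCM replicate 4 the lowest of the 8, and its log2 fold change was 0.08 ± 0.09 (adjusted p = 0.52). Per length, Slc2a10 and Slc2a1 were at 18.6 ± 0.93 and 12.6 ± 1.70 RPKM, the CPM divided by gene length (SD, n = 4), in NCM and both at 13.3 RPKM in LLC-CM. Slc2a3, a high-affinity transporter, was far lower at 0.25 ± 0.03 and 0.17 ± 0.05 RPKM in LLC-CM and NCM, with a log2 fold change of 0.53 ± 0.23 that did not pass (adjusted p = 0.086). The insulin-responsive Slc2a4 had 0 counts over the LLC-CM libraries and 23 over NCM, between 1 and 11 per library, and was not tested. The level of the 23 NCM counts together was 8.30-fold a floor of 3 counts over the LLC-CM group. That figure leaves out the counting error of the 23, so it is not a lower bound. The NCM level was itself near the detection limit of 0.084 to 0.11 CPM per library, a floor that covers counting error only. With no low-count filter Slc2a4 passed the threshold (adjusted p = 0.0017), without a usable size.

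At the entry into glycolysis Hk2 and Gpi1 fell, and Hk1 and the phosphofructokinase subunits were not past the threshold. Hk2, the inducible hexokinase (chromosome 6, 82725025 to 82774454), stood at 50.8, 52.9, 44.6 and 42.9 CPM in LLC-CM and at 54.2, 59.7, 55.8 and 51.5 CPM in NCM. The highest LLC-CM library lay above the lowest NCM library, and Hk2 fell by 0.21 ± 0.08 (adjusted p = 0.042). That call was lost under 7 of 16 other settings, among them without LLC-CM replicate 3 (0.083) or 4 (0.11) and without NCM replicate 1 (0.052), 2 (0.11) or 3 (0.056). Hk1, the constitutive hexokinase, was at 93.9 ± 5.91 CPM in LLC-CM and 87.0 ± 4.37 CPM in NCM (SD, n = 4, adjusted p = 0.18). Gpi1, which turns glucose 6-phosphate into fructose 6-phosphate, fell by 0.32 ± 0.09 (adjusted p = 0.012), from 269 to 379 CPM in NCM to 263 to 286 CPM in LLC-CM, with the lowest NCM library inside the LLC-CM range. Pfkl, Pfkm and Pfkp, the 3 subunits of phosphofructokinase, the committing enzyme, had log2 fold changes of 0.13, 0.02 and 0.06 and none passed the threshold.

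The 2 largest decreases among the 33 tested genes were in enzymes that make fructose 2,6-bisphosphate, the strongest activator of phosphofructokinase. Pfkfb4 (chromosome 9, 108991902 to 109032197), one of the kinase and phosphatase isozymes that set its level, stood at 7.86, 7.99, 9.52 and 8.43 CPM in LLC-CM and at 34.8, 38.8, 46.1 and 36.0 CPM in NCM. The groups were wide apart, and Pfkfb4 was 4.59-fold lower in LLC-CM (log2 fold change -2.20 ± 0.10, adjusted p = 2.99e-10). Pfkfb3 (chromosome 2, 11471433 to 11554077), the isozyme whose kinase activity most outweighs its phosphatase activity, stood at 8.21, 10.3, 10.2 and 10.6 CPM in LLC-CM and at 21.05, 20.97, 24.0 and 22.7 CPM in NCM. It was 2.25-fold lower (-1.17 ± 0.10, adjusted p = 1.97e-07), with no overlap of the groups. Pfkfb2, the isozyme best known from heart, was at 30.8 ± 1.65 CPM in LLC-CM and 30.5 ± 1.74 CPM in NCM (adjusted p = 0.89). In the GENCODE M21 annotation 19.5% of the exonic length of Pfkfb2 overlapped other genes, while Pfkfb3 and Pfkfb4 overlapped none. Per length Pfkfb4 was the highest of the 3 in NCM, at 11.7 RPKM against 4.2 for Pfkfb2 and 2.93 for Pfkfb3, and in LLC-CM Pfkfb2 was the highest, at 4.24 RPKM against 2.53 for Pfkfb4 and 1.30 for Pfkfb3.

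**Figure D2:**
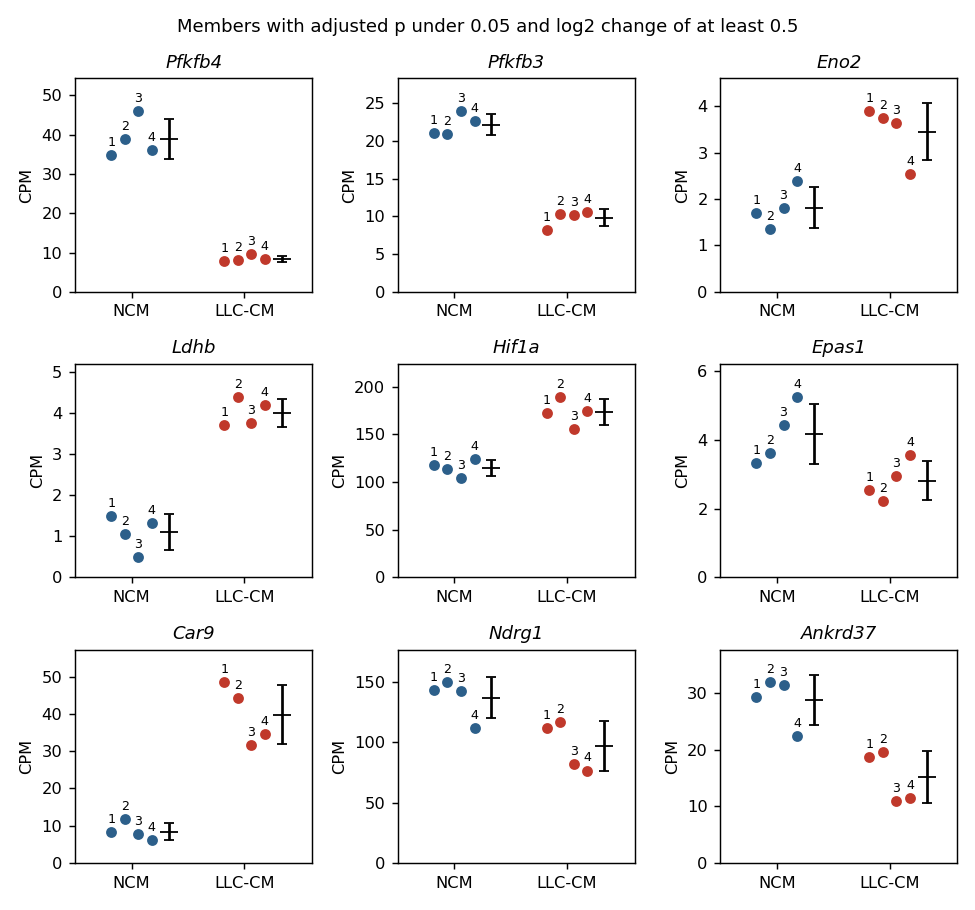
CPM of each library (points, numbered by replicate) with mean and SD (bars) for the 9 genes with an adjusted p under 0.05 and an absolute log2 fold change of at least 0.5. NCM (blue) and LLC-CM (red) do not overlap for Pfkfb4, Pfkfb3, Eno2, Ldhb, Hif1a, Car9 and Ankrd37, and overlap for Epas1 and Ndrg1.

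The abundant enzymes from Gpi1 to Ldha mostly did not pass the threshold. Of Gpi1, Aldoa, Tpi1, Gapdh, Pgk1, Pgam1, Eno1, Pkm and Ldha, 9 genes grouped after their values were seen, 1 rose, 1 fell and 7 were not past it, with a median log2 fold change of 0.18. This made 22.2% called, against 36.9% of all genes tested, whose median log2 fold change was 0.01. Most genes at large did not pass either. Aldoa, the main aldolase, rose by 0.33 ± 0.11 (adjusted p = 0.026), from 442 to 662 CPM in NCM to 715 to 802 CPM in LLC-CM, without overlap. Its call was lost without LLC-CM replicate 1 (0.081) or 2 (0.051) or NCM replicate 1 (0.059). Tpi1, triose phosphate isomerase (chromosome 6, 124810586 to 124814296), had the most reads per deposited gene length of the glycolytic genes. Its exonic length in GENCODE M21 was 2753 bases against 2209 deposited, so this rank depends on the length used. Tpi1 stood at 1015, 1056, 837 and 849 CPM in LLC-CM and at 834, 882, 870.1 and 603 CPM in NCM. The LLC-CM libraries 3 and 4 lay within the NCM range, and the log2 fold change was 0.24 ± 0.12 (adjusted p = 0.13). Gapdh, a common reference gene in RNA assays, was at 1715, 1519.7, 1591 and 1626 CPM in LLC-CM and at 1313, 1478, 1542 and 969.9 CPM in NCM, with a log2 fold change of 0.28 ± 0.12 (adjusted p = 0.075). Without NCM replicate 3 its adjusted p was 0.029, and without NCM replicate 4 the change was 0.15 ± 0.08 (adjusted p = 0.18). Pgk1, Eno1 and Pkm had log2 fold changes of 0.22, 0.17 and 0.18 and Pgam1 of 0.01, none past the threshold.

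NCM replicate 4 stood apart in these enzymes. It was the lowest NCM library for 9 of the 9 and the lowest of all 8 libraries for 8 of them, the exception being Gpi1, although its total of 31132450 counts was the highest of the NCM group. The 38 genes together took 0.64% of its counts, against 0.79% to 0.88% in the other NCM libraries and 0.82% to 0.93% in LLC-CM. Without NCM replicate 4, Aldoa rose by 0.21 (adjusted p = 0.043), Gpi1 fell by 0.42 (adjusted p = 0.00019), none of the other 7 passed, and the median log2 fold change of the 9 was 0.09. In LLC-CM, replicates 1 and 2 were both above replicates 3 and 4 for 17 of the 33 tested genes, among them Pgk1, Tpi1, Ldha, Car9, Bnip3, Ndrg1 and Ankrd37. The share of all tested genes with this order was not counted. Over all tested genes, however, the second principal component split these libraries alike. It stood at 6.70 and 21.5 for LLC-CM replicates 1 and 2, and at -19.1 and -12.9 for 3 and 4. This component carried 6.49% of the variance. Whether the order was more frequent among the genes followed here than among genes at large was not tested. The labels give no batch for either pattern, and its source was not tested.

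**Figure D3:**
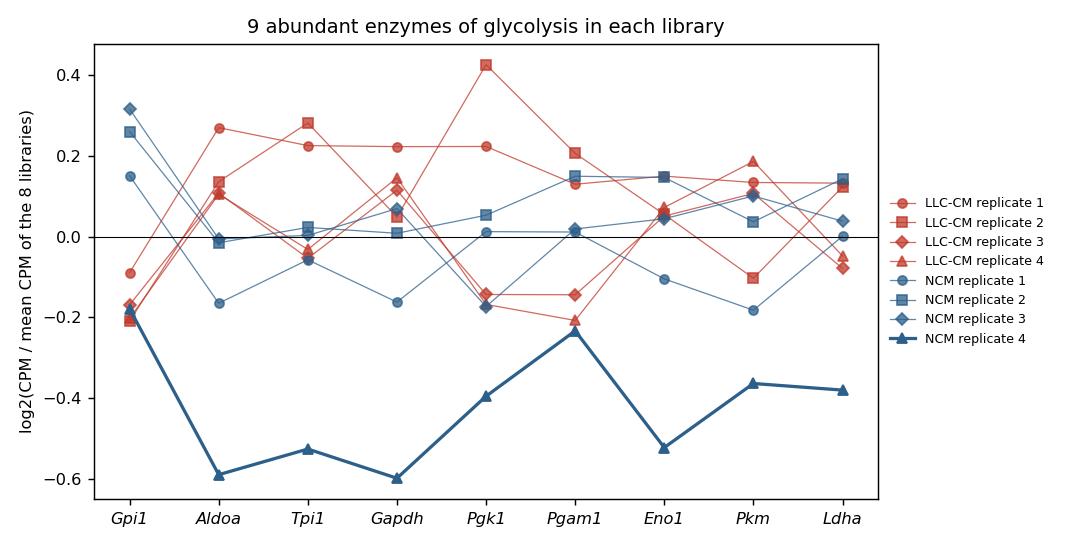
Level of 9 abundant enzymes in each library as log2 of CPM over the mean CPM of the 8 libraries (vertical axis), in pathway order. NCM replicate 4 (thick blue line, triangles) is the lowest library for every enzyme but Gpi1, where it lies among the LLC-CM libraries.

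Per length, the members of each step, summed, spanned a wide range in both groups; isozymes outside the 38 genes, such as Eno3 for enolase, are not in these sums. Hexokinase transcripts were the lowest, at 19.0 ± 1.19 RPKM in LLC-CM and 19.5 ± 1.03 RPKM in NCM (SD, n = 4). Phosphofructokinase followed at 62.1 ± 3.02 and 58.6 ± 9.86 RPKM, and Gpi1 at 60.3 ± 2.33 and 75.1 ± 10.9 RPKM. By deposited gene length the 3 lowest steps were thus the first 3 of the pathway. Phosphofructokinase and Gpi1 in LLC-CM did not differ beyond their spread. Exonic length in GENCODE M21 was larger for Gpi1 (6452 against 4497 bases), Pfkl (6675 against 4395) and Pkm (5001 against 2599). It was the same for Gapdh, Pgk1 and Eno1, so the order between genes depends on the lengths used. Aldolase stood at 269 ± 14.9 and 214 ± 37.4 RPKM, enolase at 122 ± 4.0 and 108 ± 20.4 RPKM, and Pgam1 at 123 ± 17.2 and 121 ± 13.1 RPKM. The 5 highest by deposited length were Tpi1, Gapdh, Pgk1, Pkm and lactate dehydrogenase. They lay between 305 and 425 RPKM in group means and overlapped each other between libraries. Near-identical copies make some of these levels uncertain: 148 other genes matched the Gapdh transcript at 90% identity or more over at least 200 bases, and the 140 of them in the count table summed to 7.39% of the Gapdh level. For Pgam1 the pseudogene Pgam1-ps2, identical over 765 bases, was listed at 22.5 CPM, beside 223 CPM for Pgam1 over the 8 libraries. Pfkp was identical over 748 bases to Pitrm1, a gene on the other strand listed at 109 CPM, beside 92.4 CPM for Pfkp.

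**Figure D4:**
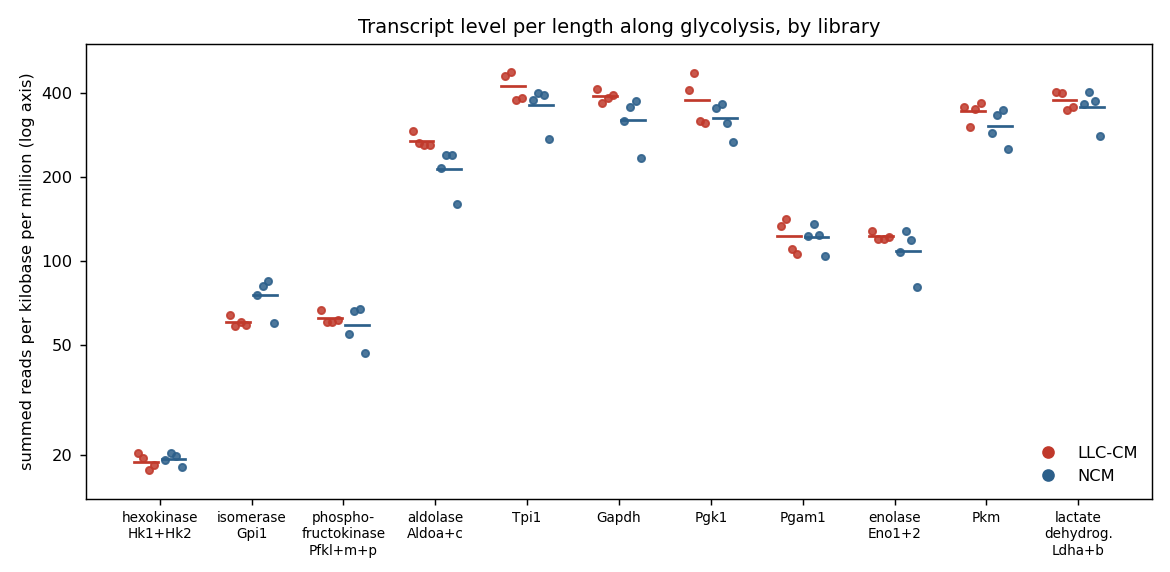
Summed transcript level per length (RPKM, log axis) of the members of each step (named on the axis, other isozymes left out) from hexokinase to lactate dehydrogenase, for each library (points) with group means (lines). The lowest step is hexokinase, with group means of 19.0 and 19.5, and the red LLC-CM and blue NCM points overlap at every step but aldolase.

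Of the low-level members Eno2, Aldoc and Fbp2, Eno2 alone had enough counts for the test, and it rose. Eno2, the neuron-type enolase (chromosome 6, 124760053 to 124769673), stood at 3.90, 3.74, 3.64 and 2.54 CPM in LLC-CM and at 1.71, 1.35, 1.8 and 2.40 CPM in NCM. The groups met closely, with the lowest LLC-CM library just above the highest NCM library, and Eno2 rose by 0.92 ± 0.20 (adjusted p = 0.0023). Fbp2, a fructose bisphosphatase that runs against glycolysis, had 11 counts over LLC-CM and 56 over NCM, and Aldoc, the brain-type aldolase, had 19 and 17, so neither was tested; with no low-count filter Fbp2 passed (adjusted p = 0.0062) and Aldoc did not (0.99).

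Transcripts of lactate dehydrogenase were nearly all Ldha in both groups, while Ldhb rose. Ldha (chromosome 7, 46841475 to 46855627), the subunit of lactate dehydrogenase that prevails in lactate-forming tissue, stood at 1192, 1185, 1029.8 and 1052 CPM in LLC-CM and at 1088, 1201, 1117 and 835 CPM in NCM. The groups overlapped, and the log2 fold change was 0.07 ± 0.10 (adjusted p = 0.62). Ldhb (chromosome 6, 142490249 to 142507957), the heart-type subunit, stood at 3.70, 4.4, 3.75 and 4.18 CPM in LLC-CM and at 1.5, 1.06, 0.49 and 1.32 CPM in NCM. All LLC-CM libraries were above all NCM libraries, and Ldhb rose 3.63-fold (log2 fold change 1.86 ± 0.24, adjusted p = 2.03e-05). Even so its share of the pair's reads per length was 0.68% ± 0.07 in LLC-CM and 0.20% ± 0.10 in NCM (SD, n = 4).

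Of the lactate transporters only Slc16a1 was detected among these genes. Slc16a1, monocarboxylate transporter 1, fell by 0.22 ± 0.07 (adjusted p = 0.025), from 30.4 to 34.7 CPM in NCM to 27.0 to 30.1 CPM in LLC-CM, without overlap. The call was lost without LLC-CM replicate 1 (0.059) or 4 (0.051) and without NCM replicate 2 (0.053) or 4 (0.066). Slc16a3, monocarboxylate transporter 4, a known Hif1a target of lactate-exporting cells, had 0 counts in all 8 libraries. Whether the authors' counting could place reads on Slc16a3 cannot be told from the table, so this 0 is given with no upper limit on its level. No other gene of GENCODE M21 overlapped its exons and no other transcript matched it at 90% identity over 200 bases.

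Of the oxygen-regulated subunits Hif1a rose and Epas1 fell. Hif1a (chromosome 12, 73901375 to 73947530), the main oxygen-regulated subunit, stood at 172, 189, 156 and 175 CPM in LLC-CM and at 117, 113, 104 and 124 CPM in NCM. Every LLC-CM library was above every NCM library, and Hif1a rose 1.51-fold (log2 fold change 0.59 ± 0.07, adjusted p = 6.69e-06). Gm15283, an antisense gene model, and Gm49321, on the same strand, overlapped 8.11% of the exonic length of Hif1a. Epas1 (chromosome 17, 86753907 to 86833410), which encodes Hif2 alpha, stood at 2.54, 2.22, 2.94 and 3.56 CPM in LLC-CM and at 3.34, 3.61, 4.45 and 5.27 CPM in NCM. One LLC-CM library lay above the lowest NCM library, and Epas1 fell by 0.56 ± 0.19 (adjusted p = 0.029). The call was lost without LLC-CM replicate 1 (0.076) or 2 (0.069) and without NCM replicate 3 (0.060) or 4 (0.10). Per length Epas1 made up 1.79% ± 0.42 of the pair in LLC-CM and 3.88% ± 0.75 in NCM (SD, n = 4).

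Among the other regulators Egln3 alone passed the threshold. Egln3, a prolyl hydroxylase that is itself a Hif target, rose by 0.40 ± 0.13 (adjusted p = 0.025), from 9.72 to 12.8 CPM in NCM to 12.1 to 17.8 CPM in LLC-CM, with overlap. Its call was lost without LLC-CM replicate 1 (0.075) or 2 (0.072) and without NCM replicate 1 (0.083) or 4 (0.058). Egln1, the main oxygen sensor, had a log2 fold change of -0.11 ± 0.09 (adjusted p = 0.38), Vhl of -0.10 ± 0.06 (adjusted p = 0.23) and Arnt of 0.06 ± 0.05 (adjusted p = 0.38).

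Hif targets outside glycolysis moved in opposite directions. Car9 (chromosome 4, 43506966 to 43513729), a cell surface carbonic anhydrase used as a hypoxia marker, stood at 48.5, 44.3, 31.8 and 34.6 CPM in LLC-CM and at 8.32, 11.7, 7.63 and 6.06 CPM in NCM. The lowest LLC-CM library was above the highest NCM library by a wide margin, and Car9 rose 4.73-fold (log2 fold change 2.24 ± 0.19, adjusted p = 2.65e-06). An antisense gene model overlapped part of Car9, 9.29% of its exonic length together with any other gene. Ankrd37 (chromosome 8, 45996902 to 45999867), an ankyrin repeat protein induced by Hif1a, stood at 18.6, 19.5, 10.9 and 11.5 CPM in LLC-CM and at 29.3, 32.0, 31.5 and 22.4 CPM in NCM. The groups did not overlap, and Ankrd37 fell by 0.93 ± 0.19 (adjusted p = 0.0027); genes on the other strand, Lrp2bp and Ufsp2, overlapped 26.4% of its exonic length.

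Ndrg1, a stress-responsive gene induced by hypoxia (chromosome 15, 66929321 to 66969640), stood at 112, 117, 81.9 and 76.7 CPM in LLC-CM and at 144, 150.0, 143 and 112 CPM in NCM. NCM replicate 4 lay within the LLC-CM range, and Ndrg1 fell by 0.50 ± 0.14 (adjusted p = 0.016), a call lost without the low-count filter (0.078). Bnip3, a mitophagy receptor (chromosome 7, 138890836 to 138909519), had the most reads per length of the targets, at 259, 313, 191 and 183 CPM in LLC-CM and 283, 265, 252 and 196 CPM in NCM. The LLC-CM range enclosed the NCM range, and the log2 fold change was -0.07 ± 0.17 (adjusted p = 0.78), with 22.3% of its exonic length overlapped by an antisense gene model. Car12, another cell surface carbonic anhydrase, had 24 counts over LLC-CM and 7 over NCM and was not tested (adjusted p = 0.21 with no low-count filter).

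Because Hif targets split in direction, the 250 bases before the RefSeq start (GRCm38.p6) of the risen Car9 and Egln3 and of the fallen Ankrd37 and Pfkfb4 are shown, 5′ to 3′ on the gene's strand. Capitals mark ACGTG and GCGTG, the core letters that Hif dimers bind, on either strand (CACGT and CACGC), and overlapping matches run together.
Car9, chr4:43506776-43507025, plus strand: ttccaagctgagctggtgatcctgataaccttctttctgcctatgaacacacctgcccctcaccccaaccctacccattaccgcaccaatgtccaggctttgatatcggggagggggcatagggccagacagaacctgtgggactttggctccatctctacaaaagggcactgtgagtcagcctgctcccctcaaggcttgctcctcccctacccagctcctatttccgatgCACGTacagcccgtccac
Egln3, chr12:54203875-54204124, minus strand: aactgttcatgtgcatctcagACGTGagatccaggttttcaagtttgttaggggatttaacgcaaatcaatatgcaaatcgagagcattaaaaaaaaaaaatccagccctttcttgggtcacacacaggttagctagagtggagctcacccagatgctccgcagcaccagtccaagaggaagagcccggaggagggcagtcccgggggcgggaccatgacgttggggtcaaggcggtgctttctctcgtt
Ankrd37, chr8:45999851-46000100, minus strand: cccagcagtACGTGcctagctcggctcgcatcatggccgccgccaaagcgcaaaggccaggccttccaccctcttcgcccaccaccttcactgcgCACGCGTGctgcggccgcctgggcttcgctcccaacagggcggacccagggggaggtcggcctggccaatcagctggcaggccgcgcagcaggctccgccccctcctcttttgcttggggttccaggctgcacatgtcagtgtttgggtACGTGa
Pfkfb4, chr9:108991652-108991901, plus strand: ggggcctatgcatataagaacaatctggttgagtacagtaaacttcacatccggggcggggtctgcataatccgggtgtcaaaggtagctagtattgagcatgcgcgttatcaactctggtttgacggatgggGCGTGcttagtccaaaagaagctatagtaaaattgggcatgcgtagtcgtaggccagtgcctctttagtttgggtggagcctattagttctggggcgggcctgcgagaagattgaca
Car9 and Egln3 each held 1 match to ACGTG, Ankrd37 held 2 to ACGTG and 2 to GCGTG, and Pfkfb4 held 1 to GCGTG, so these letters stood in the windows of genes of both directions. Promoters were listed for 34 of the 38 genes (not Epas1, Ndrg1, Slc2a3 and Slc2a4), 48 windows in all, and 38 of them (79.2%) held either core against 38.6% of all 32851 windows. Both cores contain a CpG, and the median number of CpG in a window was 13 for these genes and 6 over all windows. A match is a description of letters and not a measured site.

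Ratios within pairs, which do not depend on library scaling, were compared for 11 pairs, of which 9 had enough counts for a test. For 5 of the 9 the groups did not overlap, each at p = 0.029 (exact permutation test, two-sided), the smallest value that 4 against 4 samples allow, and 0.051 after Benjamini-Hochberg adjustment over the 9, so none passed 0.05. The Hk2 to Hk1 ratio was 1.25-fold lower in LLC-CM, with Hk2 at 42.1% ± 2.54 of the pair per length against 47.6% ± 0.89 in NCM (SD, n = 4). Pfkfb4 to Pfkfb3 was 2.03-fold lower, with Pfkfb4 at 66.1% ± 2.42 against 79.8% ± 1.45 of the pair. Epas1 to Hif1a was 2.23-fold lower, Ldhb to Ldha 3.68-fold higher and Egln3 to Egln1 1.42-fold higher, the last with Egln3 at 21.6% ± 1.1 against 16.2% ± 1.75. The other 4 pairs overlapped: Eno2 to Eno1 differed by 0.74 on the log2 scale (exact p = 0.057), Slc2a3 to Slc2a1 by 0.46 (0.086), Pfkm to Pfkl by -0.13 (0.31) and Pfkp to Pfkl by -0.10 (0.54). Aldoc was too low for a test, as was Slc16a3.

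**Figure D5:**
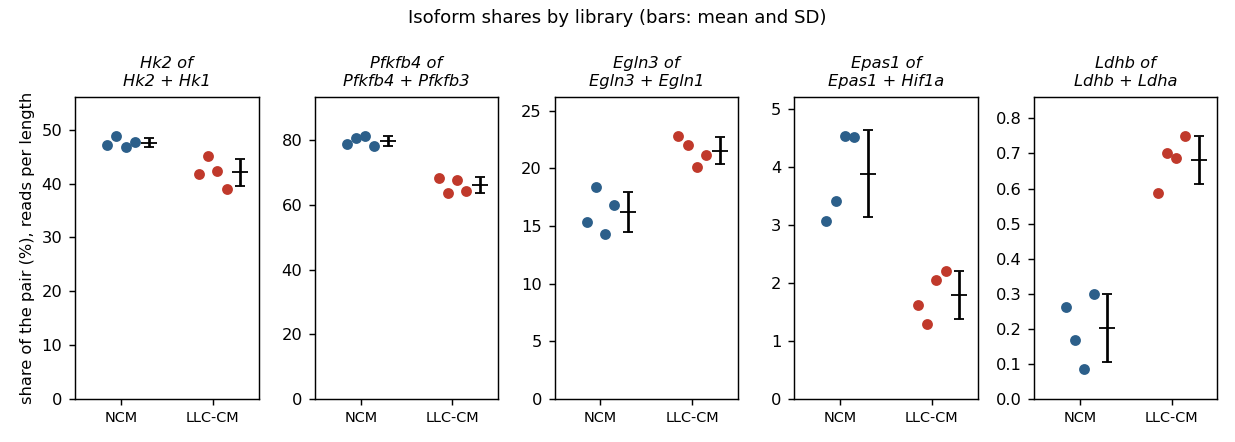
Share (%) of the first gene in the reads per length of each pair, for each library (points) with mean and SD (bars), each axis from 0. The 5 pairs shown are those whose groups do not overlap: Hk2, Pfkfb4 and Epas1 took a smaller share in LLC-CM (red) than in NCM (blue), and Egln3 and Ldhb a larger one.

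Other genes of the same pathways also moved both ways. Of 17 tested glycolysis genes outside the 38, 7 rose and 4 fell (64.7% called, against 36.9% of all genes, median log2 fold change 0.08). Emb, embigin, a partner protein of monocarboxylate transporters, rose 8.37-fold from 4.74 ± 0.87 to 39.7 ± 5.18 CPM (SD, n = 4, adjusted p = 1.24e-10). Ldhd, the D-lactate dehydrogenase, rose by 1.94 ± 0.21 and Pgm2, a phosphoglucomutase, by 0.57 ± 0.09, while Slc2a13, a myo-inositol transporter, fell by 1.62 ± 0.17. Eno3, the muscle-type enolase, rose by 0.37 ± 0.06 (adjusted p = 0.00024), from 58.0 ± 2.32 to 74.7 ± 4.72 CPM (SD, n = 4), and was named after its values were seen. Bsg, basigin, the other known partner of Slc16a1, rose by 0.30 ± 0.07 (adjusted p = 0.0052), and was chosen after its values were seen.

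Of 15 other tested genes of oxygen sensing, 5 rose and 2 fell (46.7% called, against 36.9% of all genes, median 0.10). Hif3a, a Hif alpha subunit with inhibitory forms, rose by 0.63 ± 0.13, and Tceb1, the elongin C subunit of the Vhl complex, by 0.35 ± 0.08. Hif1an, the asparagine hydroxylase that inhibits Hif, fell by 0.28 ± 0.06 and Siah2, a ubiquitin ligase acting on Egln proteins, by 0.39 ± 0.11. Of 28 other tested Hif targets, 9 rose and 8 fell (60.7% called, against 36.9% of all genes, median 0.06). Hmox1, heme oxygenase, rose by 1.36 ± 0.09 and Tfrc, the transferrin receptor, by 0.81 ± 0.08, while Insig2, a regulator of sterol synthesis, fell by 0.81 ± 0.06 and Rora, a nuclear receptor, by 0.55 ± 0.06. Vegfa (0.03 ± 0.11) and Pdk1 (0.05 ± 0.10), widely used Hif target genes named here after their values were seen, did not pass the threshold.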

How the data were processed

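RNA of 8 MC3T3 libraries was sequenced after poly(A) selection, per the labels' protocols. The authors deposited raw read counts per gene, with gene length and coordinates. The submitters' processing notes list mm10 and the tools STAR, featureCounts and CASAVA, without versions or counting settings. The kit does not mark strand, so reads of overlapping antisense genes cannot be told apart, and how they were counted is not stated. Columns were matched to samples by title.

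Of 43346 genes 22913 had a count and 14991 passed filterByExpr. Groups were compared by the quasi-likelihood test (R 4.3.3, edgeR 4.0.16) under TMM scaling and robust dispersion, without covariates, and p-values were adjusted by Benjamini-Hochberg across the tested genes (threshold 0.05). SE is the absolute log2 fold change over the square root of F. RPKM divides TMM-scaled CPM by the deposited gene length, so levels compared between genes depend on that length. Pair ratios used log2 counts plus 0.5 and exact permutation (scipy 1.17.1). Exon overlaps and transcript matches (blastn 2.17.0) used GENCODE M21, where 28 of the 38 genes had the deposited coordinates. Beyond the overlaps named in the Results, other genes overlapped 11.5% of the exonic length of Gpi1. The share was 8.43% for Ndrg1, 10.7% for Pfkm and 15.3% for Pkm, and lower for some further members. No 2 libraries of a group agreed within sampling noise (chi-square per degree of freedom at least 7.07).

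Values in every library are given for genes past 0.05 with an absolute log2 fold change of at least 0.5, for the gene of each role with the most reads per length, and for Slc2a1, Hk2, Ldha, Hif1a, Epas1 and, after its values were seen, Gapdh. From the other fixed lists up to 4 genes with the smallest adjusted p are named. Genes and lists were chosen with earlier results of these data known. In 5 simulated sets of 14991 genes for LLC-CM against NCM, 200 genes were changed in each. Recovered were 71.6% of genes changed 1.5-fold, 83.9% changed 2-fold and 98.5% changed 4-fold, and 7.14% of calls were false. In the data far more genes were called (36.9%), so these rates need not hold there. No change under 1.5-fold was simulated, so recovery of smaller changes is not known. Alternatives were other scalings and filters, DESeq2 1.42.0, limma-voom (limma 3.58.1), a replicate block, each library left out, and a threshold of 0.01.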

Additional observations from a re-analysis of the deposited data

Results flagged for a closer look

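In 80 groups of 4 values (each gene with a count and 3 library measures, in each group of libraries), 3 held a value far from the other 3 by Dixon's test, which flags about 1 in 20 groups by chance. Tpi1 was lowest in NCM replicate 4, at 603 CPM against 834 to 882 CPM in the other NCM libraries. Pfkfb3 was lowest in LLC-CM replicate 1, at 8.21 CPM against 10.2 to 10.6 CPM. Slc16a1 was highest in LLC-CM replicate 2, at 30.1 CPM against 27.0 to 27.4 CPM.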

How the results depend on the processing

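Among all genes 3946 to 5737 passed over 17 other settings, against 5531. The members' 15 calls (6 higher, 9 lower) became 8 (4 lower) at a threshold of 0.01, and 12 to 15 with 1 library left out. Without NCM replicate 4 they were 12, with Slc16a1, Epas1 and Egln3 lost. Deviations from the group mean correlated at -0.04 to 0.20 for samples sharing a replicate number, and at -0.23 to 0.18 for the others. The ranges overlap and the correlations are few, so they neither show nor exclude a pairing by number. With the replicate number as a block 18 members passed, Tpi1, Gapdh and Pgk1 in addition, and the paired difference of Ldhb to Ldha was 1.88 (exact sign-flip permutation p = 0.125, the smallest that 4 pairs allow). Genes that were not called changed sign when 1 library was left out: Slc2a1 (-0.018 to 0.13), Pfkl (-0.020 to 0.22), Pfkm (-0.038 to 0.076), Pfkfb2 (-0.032 to 0.045), Pgam1 (-0.065 to 0.070), Ldha (-0.036 to 0.13) and Bnip3 (-0.24 to 0.022). So did the ratio of Pfkp to Pfkl, at -0.185 to 0.0093. The cause was not tested. Pfkfb4, Pfkfb3, Slc2a10, Gpi1, Eno2, Ldhb, Hif1a, Car9 and Ankrd37 kept their direction and an adjusted p under 0.05 in all 16 settings that refit the test. Slc2a4, Aldoc, Fbp2 and Car12 had too few counts to pass the filter, and Slc16a3 had 0.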

Other observations

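The pentose phosphate pathway, which branches from glucose 6-phosphate and supplies NADPH and ribose, held 3 higher and no lower genes of 8 tested (37.5% called, against 36.9% of all genes, median log2 fold change 0.12). H6pd, the enzyme of its first steps in the endoplasmic reticulum, rose by 0.70 ± 0.09, G6pdx, the cytosolic glucose 6-phosphate dehydrogenase, by 0.37 ± 0.07, and Rpia, ribose 5-phosphate isomerase, by 0.33 ± 0.07 (SE, edgeR).

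Glycogen genes held 6 higher and 1 lower of 14 tested (7 of 14 called, against 36.9% of all genes, median 0.16). Pygm, the muscle-type glycogen phosphorylase, was 6.64-fold lower, at 4.32 ± 1.21 CPM in LLC-CM against 28.8 ± 5.51 CPM in NCM (SD, n = 4). Gyg, the primer of glycogen synthesis, rose by 0.59 ± 0.11, Ppp1r3b, a glycogen-targeting phosphatase subunit, by 0.63 ± 0.09, and Gaa, the lysosomal glucosidase that degrades glycogen, by 0.74 ± 0.12. The skeletal muscle markers summed to 1.1 to 2.02 CPM in LLC-CM and 0.71 to 0.89 CPM in NCM, and their part in the Pygm result was not tested.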
